A study of Homo sapiens with 6 samples.

Results

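The genes described here encode integrins and the proteins that gather at focal adhesions, 36 genes chosen by name, of which 35 were found among the 20745 genes of the deposited table. ITGA8 had no matching row and was left out. The RNA came from AB 8/13 cells, a line of human podocytes that is immortalized conditionally, so that the cells divide at 33 °C and stop dividing and differentiate at 37 °C, here for 7 to 10 days. The study had 3 vehicle cultures and 3 cultures given 1 µM levamisole, an anthelminthic that also modulates immunity, for 24 h. By the labels neither group received serum, whereas by the methods the vehicle group stayed in complete medium, and which of these holds is not known. All cultures came from this 1 line, grown in wells without other glomerular cells.

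Libraries were made with an adapted CEL-seq protocol, which primes on the poly(A) tail and reads the 3′ part of a transcript. The only value used is the mean normalized count, 1 number per gene that the authors averaged over the libraries of their fit, vehicle and levamisole together. It has no value per culture, so no SD, n or depth per library can be given, and no comparison of levamisole with vehicle was made. The columns of the authors' own comparison were not used. The levels below therefore say what the line expressed, not what levamisole changed.

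Integrins are receptors of 1 alpha and 1 beta subunit that cross the cell membrane and bind proteins of the extracellular matrix. Inside the cell, talin and kindlin bind the beta tail, vinculin and the complex of ILK, PINCH and parvin join them to actin, and FAK and Src family kinases signal from the site through scaffolds such as paxillin. Podocytes are held to the glomerular basement membrane by such receptors, above all by the laminin-binding pair of ITGA3 and ITGB1, and the loss of that pair is known to cause detachment and proteinuria.

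The 35 genes ran from a mean normalized count of 1.29 for ITGA10 to 13006 for CAV1, with a median of 312. The median over all genes of the table was 21.8, and 32 of the 35 lay above it. A count of at least 5, taken as detected, was reached by 34 of the 35 genes, against 64.3% of all genes and 81.9% of the protein-coding ones. At least 100 was reached by 25 of them (71.4%), against 29.4% of all genes and 41.3% of the protein-coding ones. At least 1000 was reached by 9 (25.7%), against 3.67% and 5.19%. In the order of all genes, the median member stood at percentile 87.2, and 16 members stood at percentile 90 or above. On the mean normalized count per kb of transcript the median member stood at percentile 82.1. Since the genes were chosen with earlier results of these data known, that most were detected is a description and no finding. Together they took 0.615% of the summed mean normalized counts, or 0.943% without the genes of the mitochondrial genome, and CAV1 alone took 33.3% of that part.

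**Figure D1:**
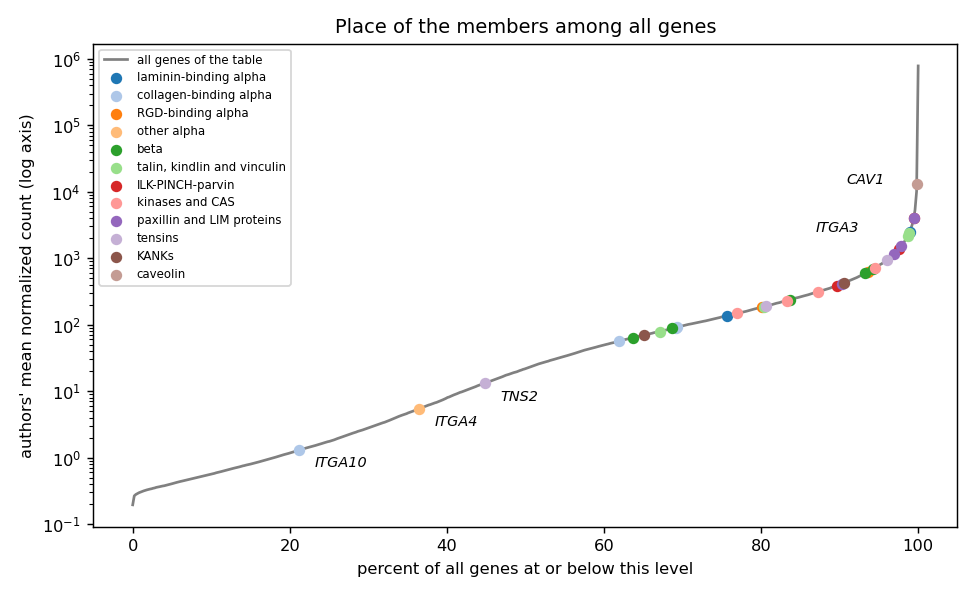
Mean normalized count (log axis) against the percent of all 20745 genes at or below that level; the grey line is all genes and each point is 1 of the 35 members, coloured by role. ITGA10, ITGA4 and TNS2 lie in the lower part of the curve, while CAV1 stands at percentile 99.8 and ITGA3 at 98.9.

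Levels of different genes are set side by side per kb of the canonical transcript. These libraries read the 3′ part of a transcript, so the count of reads per transcript is not proportional to length. Division by length can therefore raise genes with short transcripts over genes with long ones, and the mean normalized count is printed too. Over the 13285 detected genes with a known length, Spearman's rho of the mean normalized count with length was 0.14, and over the 35 members it was -0.24. The order of the members on the 2 scales had a rho of 0.96. These are descriptions across genes, which are not replicates. In RNA from a whole culture, fewer cells that express a gene and less RNA of it per cell cannot be told apart.

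**Figure D2:**
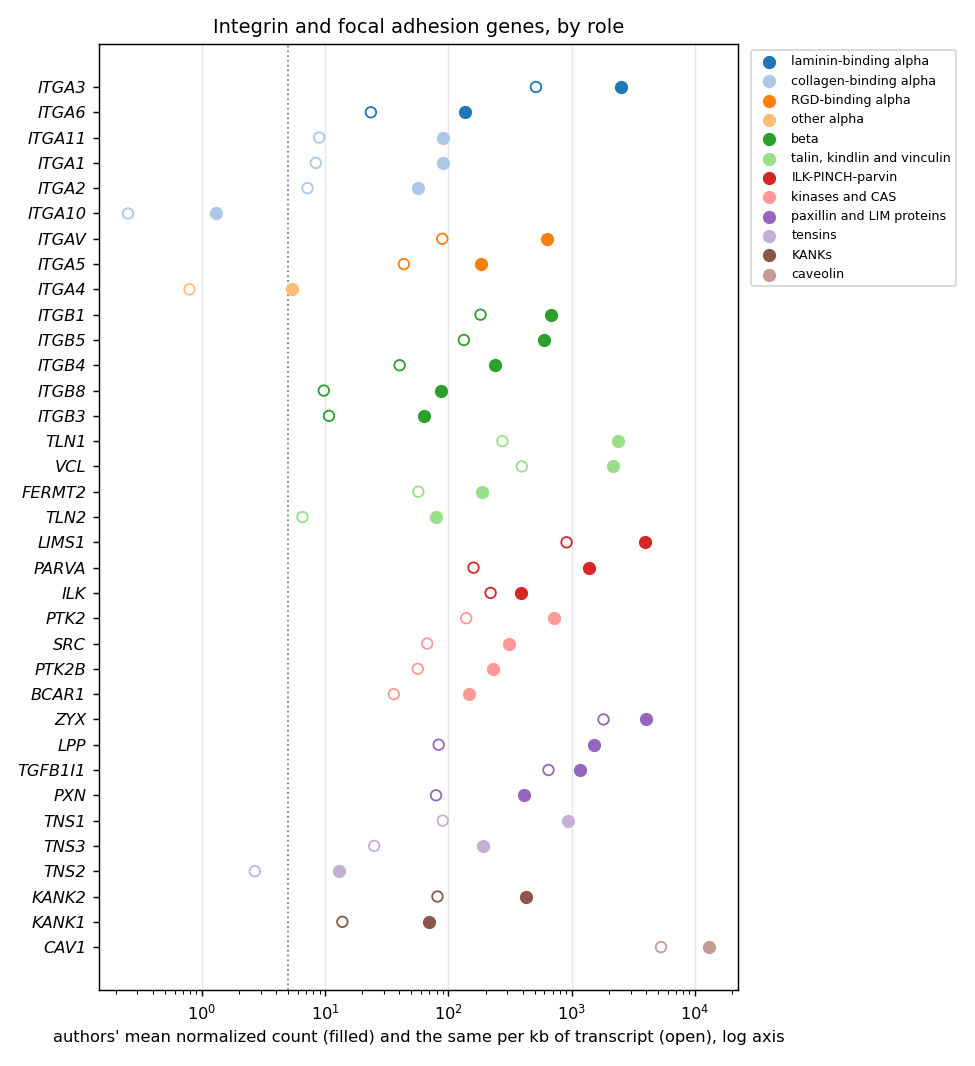
Each row is 1 gene, grouped by role; the filled circle is the mean normalized count, the open circle the same per kb of transcript, on a log axis, and the dotted line marks a count of 5. CAV1, ZYX and LIMS1 lie furthest to the right on both scales, and ITGA10 and ITGA4 furthest to the left.

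How far a count can be trusted depends on whether the 3′ end of a gene is unique. For each gene, all 441 reads of 60 bases within the last 500 exonic bases were looked up in the genome. For 30 of the 35 genes, no such read had an exact copy outside the gene. The exceptions were ITGB1, LIMS1, ITGB3, TNS3 and VCL. In none of the 35 was the end covered by an exon of another gene on the same strand.

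ITGB1 was the gene most affected. Of its 441 possible end reads, 362 (82.1%) also occur on chromosome 19 of GRCh38 between 14622868 and 14623288, inside ADGRE3. ITGB1 itself lies on chromosome 10 from 32887273 to 33005792, on the minus strand. HTSeq-count in its default mode does not count reads that fit more than 1 place equally well, and the value of ITGB1 was not corrected for this. For LIMS1, 245 end reads (55.6%) recur at LIMS3 and LIMS4, on the same chromosome. For ITGB3, 109 end reads (24.7%) recur, spread over 328 places of the genome. TNS3 (5.4%) and VCL (0.9%) had few such reads. The levels of ITGB1, LIMS1 and ITGB3 are given below as uncertain for this reason.

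ITGA3, the alpha subunit of the main podocyte laminin receptor, led the integrins as counted, with the count of ITGB1 uncertain. ITGA3 lies on chromosome 17 from 50055968 to 50090481 and had a mean normalized count of 2506, or 513 per kb. Its 60-base end reads had no copy elsewhere. Of the summed levels of the 9 alpha subunits, ITGA3 took 73.8% per kb and 67.7% as deposited. ITGA6, the other laminin-binding alpha subunit among the members, which pairs with ITGB1 or ITGB4, had a mean normalized count of 137. ITGA3 stood 21.8-fold above ITGA6 per kb and 18.3-fold as deposited.

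The alpha subunits that bind the RGD motif of fibronectin and vitronectin came next. ITGAV, which pairs with several beta subunits and also binds latent TGF-beta, had a mean normalized count of 627, or 89.1 per kb. ITGA5, the classic fibronectin receptor subunit, had a mean normalized count of 185, or 43.5 per kb. ITGAV was thus 2.05-fold higher per kb and 3.39-fold higher as deposited.

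The collagen-binding alpha subunits were low among the members, and close to each other with 1 exception. In the order of all genes, ITGA11, ITGA1 and ITGA2 stood at percentiles 69.3, 69.1 and 61.9. ITGA11 had a mean normalized count of 91.1, ITGA1 one of 90.1 and ITGA2 one of 56.3. Per kb these are 8.94, 8.39 and 7.18, and with no error known their order cannot be separated. ITGA10, a collagen receptor known from cartilage, had a mean normalized count of 1.29 and was the single member under the minimum of 5. ITGA4, which binds VCAM1 and fibronectin and is best known from leukocytes, was just above it at 5.38.

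Among the beta subunits, ITGB1, the partner of most alpha subunits, had a mean normalized count of 680, or 182 per kb, and ITGB5, a partner of ITGAV, one of 592, or 133 per kb. ITGB4, which anchors hemidesmosomes with ITGA6, followed with 237, or 40.2 per kb. ITGB8, which with ITGAV activates latent TGF-beta, had 87.5 and ITGB3 had 63.8. Of the summed beta levels per kb, ITGB1 took 48.4% and ITGB5 35.5%, with the count of ITGB1 uncertain for the copies named above. The level of ITGB3, the subunit whose activation on podocytes has been tied to foot process effacement, was 10.7 per kb. ITGB5 stood 12.4-fold above ITGB3 per kb and 9.28-fold as deposited, with the count of ITGB3 uncertain.

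Set beside its partner, ITGA3 had a level 2.82 times that of ITGB1 per kb and 3.69 times as deposited. ITGB1 can pair with each of the alpha subunits named here. The 9 alpha subunits summed to 694 per kb against 376 for the 5 beta subunits, and to 3699 against 1660 as deposited. Most 60-base reads from the end of ITGB1 are not unique, and their part in these ratios was not tested. The pair of ITGA6 and ITGB4 had a ratio of 0.585 per kb and 0.577 as deposited. That of ITGAV and ITGB5 changed direction with the scale, at 0.668 per kb and 1.06 as deposited. The 60-base end reads of these 4 genes had no exact copy elsewhere.

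Of 11 other integrin subunits, 8 had a row, and their mean normalized counts ran from 0.361 for ITGB7 to 39.0 for ITGAE. ITGAE, which binds E-cadherin, ITGB2 at 6.20 and ITGB6 at 5.53 were the ones at or above 5. The leukocyte subunits ITGAM and ITGAX had 3.40 and 0.703, the platelet subunit ITGA2B had 0.866 and ITGA7 had 2.97. No row was matched for ITGA9, ITGAD or ITGAL. ITGB1BP1, which binds the ITGB1 tail and is no subunit, had 721.

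**Figure D3:**
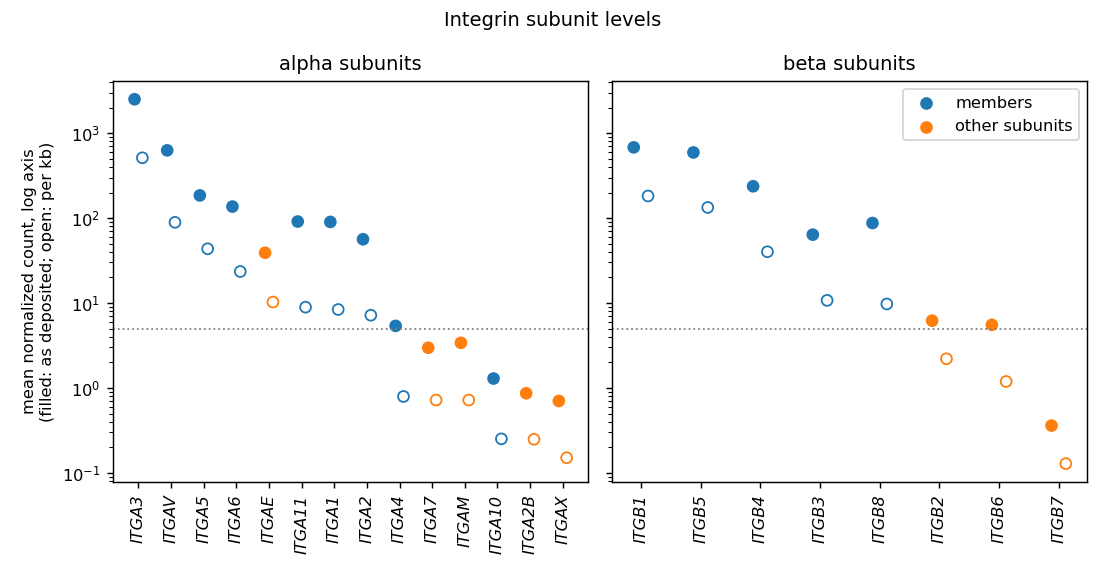
Levels of every integrin subunit with a row, alpha subunits on the left and beta subunits on the right, on a log axis; filled circles are mean normalized counts, open circles the same per kb, blue the members and orange the other subunits, and the dotted line marks a count of 5. ITGA3 at 2506 stands above every other subunit, and ITGB1 and ITGB5 lie next to each other at the top of the beta subunits. The count of ITGB1 is uncertain, since 82.1% of its end reads have a copy elsewhere.

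Of the adaptors that bind beta tails and actin, TLN1 and VCL stood above each member integrin other than ITGA3 on both scales. TLN2 was low among the members, at percentile 67.1 of all genes. The order of TLN1 and VCL against ITGB1 is uncertain, because the count of ITGB1 is. TLN1, the talin that switches integrins on, had a mean normalized count of 2362, or 274 per kb. Its relative TLN2 had 78.7, and TLN1 took 97.7% of the talin level per kb. VCL, the vinculin that binds stretched talin and actin, had 2165, or 394 per kb. FERMT2, the kindlin that helps talin, had 187, or 57.0 per kb, so TLN1 stood 4.81-fold above it per kb and 12.6-fold as deposited. The other kindlins were lower, with 32.2 for FERMT1 and 0.848 for FERMT3, the kindlin of blood cells.

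The complex of ILK, PINCH and parvin links the receptors to actin. LIMS1, which encodes PINCH-1, had a mean normalized count of 3955, or 908 per kb. PARVA, the actin-binding alpha-parvin, had 1377, or 160 per kb. ILK, a pseudokinase that holds the other members of the complex, had 386, or 220 per kb. The order of PARVA and ILK thus differs between the scales, with PARVA 3.56 times ILK as deposited and 0.727 times per kb. LIMS1 exceeded both on either scale, with its count uncertain for the copies named above. Their relatives were lower, with 30.8 for LIMS2, 96.3 for PARVB and 0.306 for PARVG. RSU1, which binds PINCH, had 3337.

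Of the signalling members, PTK2, which encodes FAK, had a mean normalized count of 716, or 139 per kb. SRC, the kinase that FAK recruits, had 312, or 67.2 per kb. PTK2B, which encodes the FAK relative PYK2, had 230, or 56.4 per kb, and FAK took 71.2% of the level per kb of these 2 relatives. BCAR1, the scaffold that both kinases phosphorylate, had 147, while NEDD9 of the same family had 427. Per kb, BCAR1 was at 36.1 and NEDD9 at 94.3. The adaptor CRK, which binds phosphorylated BCAR1, had 729.

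The LIM proteins of focal adhesions included some of the highest levels. ZYX, the zyxin that repairs and reinforces actin fibres, had a mean normalized count of 4032, or 1810 per kb, and its relative LPP had 1525, or 83.2 per kb. The long transcript of LPP, 18316 bases, makes the ratio of the pair depend on the scale, at 2.64 as deposited and 21.7 per kb. TGFB1I1, which encodes Hic-5, a paxillin relative first found as induced by TGF-beta, had 1169, or 648 per kb. PXN, the paxillin scaffold itself, had 414, or 79.3 per kb. TGFB1I1 stood above PXN on both scales, by 2.83-fold as deposited and 8.16-fold per kb. LPXN, the leukocyte relative, had 444, or 243 per kb.

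Tensins bind beta tails in the long-lived fibrillar adhesions, and the KANK proteins tie adhesions to microtubules at the cortex. TNS1 led the tensins with a mean normalized count of 928, or 89.97 per kb. TNS3 followed with 190, and TNS2, whose loss causes nephrosis in mice, had 13.0. TNS1 took 76.5% of the tensin level per kb and TNS2 took 2.28%. TNS4, known from epithelia, had 0.332. KANK2 had 422, or 81.4 per kb, and KANK1 had 69.9, so that KANK2 took 85.5% of the level per kb of the pair. KANK3 had 9.99 and KANK4 no matched row.

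**Figure D4:**
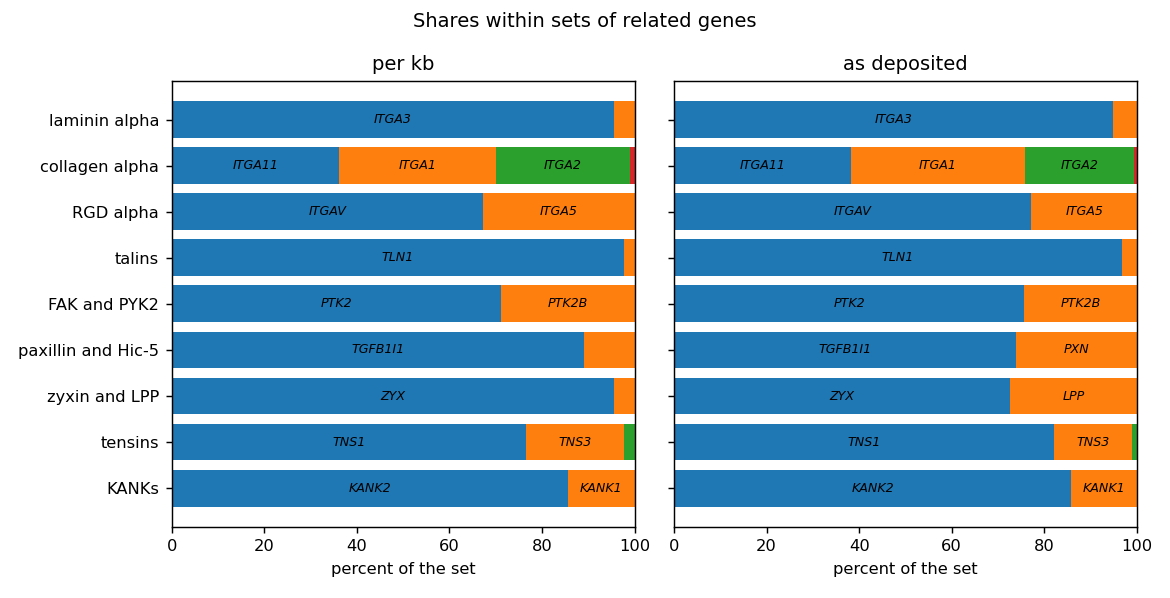
Share of each gene in the summed level of its set of relatives, per kb on the left and as deposited on the right, with the segments ordered by share. The sets hold members only, so other relatives, such as LPXN at 243 per kb, are left out. The same gene leads on both scales in all 9 sets shown, but the share of ZYX falls from 95.6% to 72.6% and that of TGFB1I1 from 89.1% to 73.9%.

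CAV1, which encodes the coat protein of caveolae and controls the uptake of integrins, was the highest member on both scales. Its mean normalized count was 13006 and its level 5296 per kb, at rank 37 of all genes as deposited. CAV2, its partner, had 1857, and CAV1 stood 8.42-fold above it per kb and 7.00-fold as deposited. CAVIN1, which shapes caveolae, had 325.

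The 300 bases around the start were read for 28 of the 35 members with a window in RefSeq (GRCh38.p14, 250 bases before a start and 50 after it, the window nearest the canonical start). For 4 of them, TNS2, BCAR1, TNS1 and KANK1, the nearest window belongs to another start, 876, 3473, 7280 and 34400 bases away. The GC box (GGGCGG), the TATA box (TATAAA) and the AP-1 site (TGANTCA) were searched on both strands. A GC box occurred in 21 of the 28 windows (75.0%), against 73.8% of 9858 windows of genes with a mean normalized count of at least 5, a level that 27 of the 28 reach, and 69.7% of 12200 windows of all genes in the table. A TATA box occurred in 0 of them, against 5.12% and 6.35%. An AP-1 site occurred in 1, ITGA5, against 4.32% and 4.99%. The median number of CpG pairs was 30.5, against 28 and 26. The windows of CAV1, ZYX and ITGA10 are shown because they belong to the members with the highest, the next highest and the lowest mean normalized count, with capitals for GC boxes. They lie at chr7:116524786-116525085 (plus strand), chr7:143381095-143381394 (plus strand) and chr1:145910001-145910300 (minus strand).
CAV1: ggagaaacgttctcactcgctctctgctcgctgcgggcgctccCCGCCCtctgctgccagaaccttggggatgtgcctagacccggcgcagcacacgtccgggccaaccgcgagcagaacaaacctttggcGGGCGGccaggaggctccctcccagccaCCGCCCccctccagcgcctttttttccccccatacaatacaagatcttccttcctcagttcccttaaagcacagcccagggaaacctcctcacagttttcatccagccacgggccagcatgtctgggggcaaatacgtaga
ZYX: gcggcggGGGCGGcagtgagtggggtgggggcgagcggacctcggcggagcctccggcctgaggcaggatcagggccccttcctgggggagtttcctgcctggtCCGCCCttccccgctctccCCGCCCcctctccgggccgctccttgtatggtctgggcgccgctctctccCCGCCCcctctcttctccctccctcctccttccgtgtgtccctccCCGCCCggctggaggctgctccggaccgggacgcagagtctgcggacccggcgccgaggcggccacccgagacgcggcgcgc
ITGA10: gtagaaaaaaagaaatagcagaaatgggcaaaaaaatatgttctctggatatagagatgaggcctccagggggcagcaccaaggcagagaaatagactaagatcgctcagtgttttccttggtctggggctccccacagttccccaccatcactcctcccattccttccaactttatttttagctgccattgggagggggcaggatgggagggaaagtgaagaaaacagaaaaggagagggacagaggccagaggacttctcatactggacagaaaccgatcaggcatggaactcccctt
The window of CAV1 holds 18 CpG pairs and 3 GC boxes, that of ZYX 32 and 5, and that of ITGA10 2 and 0. A low level did not always go with few CpG pairs, since ITGA4 has 31 and no GC box. These are descriptions of the letters in the windows.

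RNA of most listed ligands of these receptors was detected too. Of 31 listed ligands, 30 had a row and 27 of these (90%) had a mean normalized count of at least 5, with a median of 241. That count was reached by 64.3% of all genes and 81.9% of the protein-coding ones, so this is a description and no finding. VTN with 0.448, COL1A2 with 1.24 and COL3A1 with 1.79 were under 5, and no row was matched for LAMA4. THBS1 had 11062, FN1 had 7273, LAMC1 had 5805, COL4A2 had 4122 and COL1A1 had 2733. Of the laminin chains of the mature glomerular membrane, LAMA5 had 211, LAMB2 had 42.3 and LAMC1 had the value above. Of the adult collagen IV chains, COL4A3 had 10.1, COL4A4 had 24.9 and COL4A5 had 287. NPNT, the nephronectin of the podocyte, had 61.8. For FN1, 19.0% of the end reads have a copy elsewhere. The 3′ end of VTN is shared for 65.8% of its bases with a different gene transcribed in the same direction. The count of VTN is therefore uncertain, and the effect of this overlap on it was not tested.

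Of 34 other adhesion genes, 32 had a row and 29 of these (90.6%) reached a mean normalized count of 5, with a median of 151. Among the protein-coding genes the share was 81.9%, and among all genes 64.3%. FHL2, a LIM protein, was highest with 4714, followed by RSU1, CAV2, TES with 1810 and ENAH with 1332. Of 10 actin crosslinkers, all reached 5, with a median of 757. Their highest members were ACTN1 with 34950, MYH9 with 22809, ACTN4 with 14321 and FSCN1 with 2277, and PLS3 had 817. Per kb, the medians were 67.2 for the members, 54.2 for the other adhesion genes, 40.4 for the ligands and 165 for the crosslinkers.

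**Figure D5:**
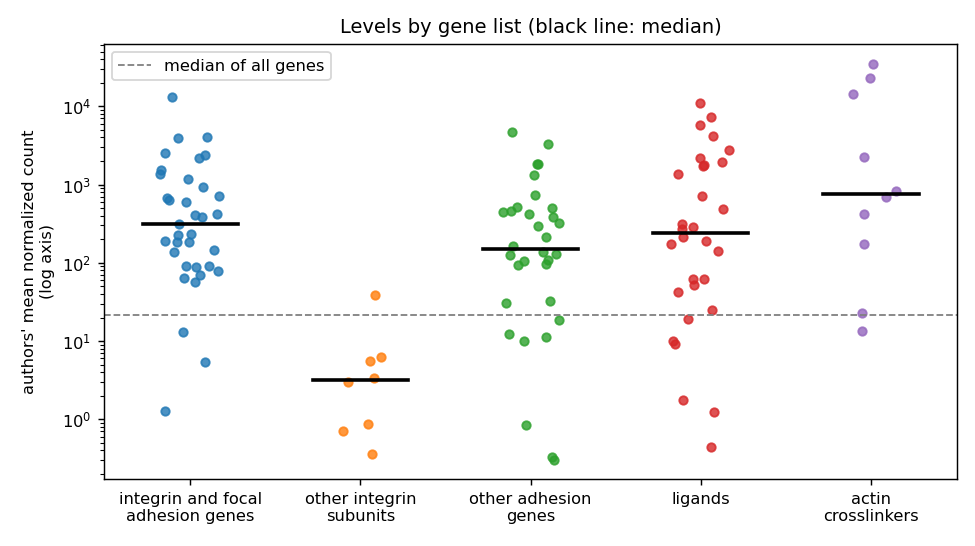
Mean normalized counts (log axis) of the 35 members and of 4 other lists, 1 point per gene with a random sideways shift; the black line is the median of a list and the dashed line that of all genes. The other integrin subunits have a median of 3.19, while the members have one of 312 and the actin crosslinkers one of 757.

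The label of the cells was checked against listed markers. Of 13 podocyte markers, 11 had a row and 10 of these (90.9%) reached a mean normalized count of 5, against 81.9% of the protein-coding genes. The most specific ones were low or unmatched. WT1 had 6.21, PODXL 15.3, SYNPO 22.8 and PTPRO 0.333, and no row was matched for NPHS1 or LMX1B. VIM with 19062, CD2AP with 929 and KIRREL1 with 253 were the higher ones, and other cell types express them too. The leukocyte markers with a row ran from 0.361 to 6.20, the platelet ones from 0.866 to 9.92, the endothelial ones from 0.306 to 0.434 and the mesangial ones from 1.54 to 4.14. Of 4 tubular markers, EPCAM had 76.3, and no row was matched for CDH16, LRP2 or SLC12A1.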

How the data were processed

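RNA of 6 cultures of AB 8/13 podocytes was sequenced after an adapted form of CEL-seq. The submitters' processing notes name Trim Galore 0.4.5, cutadapt 1.18, STAR 2.7.5a, HTSeq 0.11.0 and DESeq2 1.22.0 in R 3.5.3, on GRCh38. The table deposited by the authors holds a signal per gene, the base mean, which is the count divided by a size factor and which the authors averaged across their libraries. It is called the mean normalized count. The remaining 5 columns hold the authors' own comparison of levamisole with vehicle (log2 fold change, its standard error, statistic, p-value and adjusted p-value) and were not used, so no test was made. The depth per library is unknown.

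Genes were matched by symbol and lists by gene identifier. Of 20745 identifiers, 20599 were found in GENCODE 44, which gave positions and the length of the canonical transcript. A count of at least 5 was taken as detected. Copies of end reads were exact matches of 60 bases in chromosomes 1 to 22, X, Y and the mitochondrial genome. The ranking was checked on simulated data. Every member is named, and of the other lists each integrin and the highest genes, with further relatives chosen after their values were seen, as was the pair of zyxin and LPP. The members and lists were chosen with earlier results of these data known. The searches for copies of end reads and for promoter motifs were added after the data were seen. A planned search of protein motifs was not done, and some listed markers are not reported here. Alternatives were other minimums, other sets of genes to rank and the scale. Python 3.11.15, NumPy 2.4.6, pandas 2.3.3, SciPy 1.17.1, numba 0.67.0 and matplotlib 3.10.9 were used.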

Additional observations from a re-analysis of the deposited data

How the results depend on the processing

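No paired analysis was possible because the table holds no value per culture. For the same reason left-out replicates, other normalizations and refits were not run. The number of detected members was 34 at a minimum of 5, 35 at 1, 33 at 10 and 32 at 50. The median percentile of the members, 87.2 among all genes, was 82.0 among genes with a mean normalized count of at least 5, 81.9 among protein-coding genes and 82.1 per kb. Their share of the summed counts, 0.615%, was 0.943% without the genes of the mitochondrial genome.

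On the counts as deposited, in place of levels per kb, the shares became 67.7% for ITGA3 among the alpha subunits, 41.0% for ITGB1 among the beta subunits, 94.8% for ITGA3 among the laminin-binding, 38.1% for ITGA11 among the collagen-binding and 77.2% for ITGAV among the RGD-binding alpha subunits, 96.8% for TLN1, 75.7% for PTK2, 73.9% for TGFB1I1, 72.6% for ZYX (a pair chosen after seeing the data), 82.1% for TNS1 and 85.8% for KANK2. The leading gene was the same on both scales in each of these sets. The values of ITGB1, LIMS1 and ITGB3 rest on ends that are partly copied elsewhere, and the loss of reads there was not measured.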
